A study of Mus musculus with 4 samples.

Results

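Tetraspanins of blood and endothelium are described here as a set of 10 genes named by symbol, namely Tspan32, Tspan33, Tspan8, Cd9, Cd63, Cd81, Cd82, Cd151, Cd53 and Cd37. In the array annotation 9 of them were matched to 25 probe sets of their own, out of 34958 probe sets and 18194 genes with 1 symbol, and Cd63 was not analysed here. Of these 9 genes, 8 exceeded a signal of 100 in at least 1 population, and Cd37 did not. All 4 sorted populations came from day 6 cultures of 1 mouse ES cell line, Runx1(Venus/+), differentiated on OP9 stromal cells, and therefore share the Venus reporter knocked into 1 Runx1 allele under the proximal promoter P2. Population 1 was Runx1-/VE-cadherin+/Flk1+, population 2 Runx1+/VE-cadherin+/CD41-, population 3 Runx1+/VE-cadherin+/CD41+ and population 4 Runx1+/VE-cadherin-/CD41+, where Runx1 stands for Venus fluorescence and CD41 is not named in the gate of population 1. Each was measured on 1 Affymetrix array, so that no difference between populations has a replicate check among the values used here. The paper also describes a replicate set of these populations on Agilent arrays, which was not used here.

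Tetraspanins are membrane proteins that cross the bilayer several times, bind integrins, immunoglobulin-like proteins and proteases beside them, and gather these partners into patches of the cell surface. Some, such as CD9, CD81 and CD151, are made by many cell types including endothelium, while CD37, CD53 and TSPAN32 are known from leukocytes. TSPAN33 belongs to the TspanC8 group, whose members carry the protease ADAM10 to the cell surface.

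Across the populations, Tspan32 and Tspan33 were higher in population 4 than population 1, at least 27.3-fold and 5.35-fold. Cd82, Cd53, Cd81 and Tspan8 were lower there, at least 6.91-fold and at least 2.68-fold for the first pair and 2.51-fold and 2.14-fold for the second. Cd151 and Cd9 lay within 2-fold. The leukocyte genes thus did not move as 1 group, with Tspan32 higher, Cd53 lower and Cd37 under 100 on every array. In all, 2 of the 8 genes were at least 2-fold higher in population 4, where 22.4% of the 9468 genes above 100 were, and 4 were at least 2-fold lower, where 12.9% were. The median log2 ratio of population 4 to population 1 was -1.0 over the 8 genes and 0.36 over all 9468. Signals under 100 were raised to 100 before a ratio was taken, which makes any fold that involves one a lower bound. In these RNA samples of sorted cells, fewer cells of a type and less RNA per cell cannot be told apart.

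The transcripts of the sort genes were read as a check of the labels. Runx1 had signals in populations 1 to 4 of 55.3, 358, 1297 and 2440.2, and Cdh5, encoding VE-cadherin, 5683, 3946, 4849 and 40.9. Itga2b, encoding CD41, had signals of 667 and 1135 in populations 1 and 2, against 2418 and 1610 in populations 3 and 4, so that its transcript was also read in the CD41- sort. Between arrays the scale matters, since the median log2 ratio of population 4 to population 1 on signals as deposited was 0.43 over the 9468 genes, and the hybridisation controls, which are added in equal amounts, differed by -0.33 in mean log2 signal over 18 probe sets (population 4 minus population 1). Over 5 scalings of the arrays, the deposited one included, the log2 ratio of population 4 to population 1 spanned 4.55 to 4.95 for Tspan32, 1.99 to 2.75 for Tspan33 and -3.00 to -2.64 for Cd82. For Cd53 it spanned -1.63 to -1.21, for Cd81 -1.76 to -1.0, for Tspan8 -1.52 to -0.76 and for Cd151 -1.34 to -0.58. Only Cd9 changed sign among the 8 genes, spanning -0.28 to 0.48. Scaled on the hybridisation controls, Cd81 and Tspan8 no longer passed 2-fold, whereas Cd151 did after each of the other 3 rescalings.

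**Figure D1:**
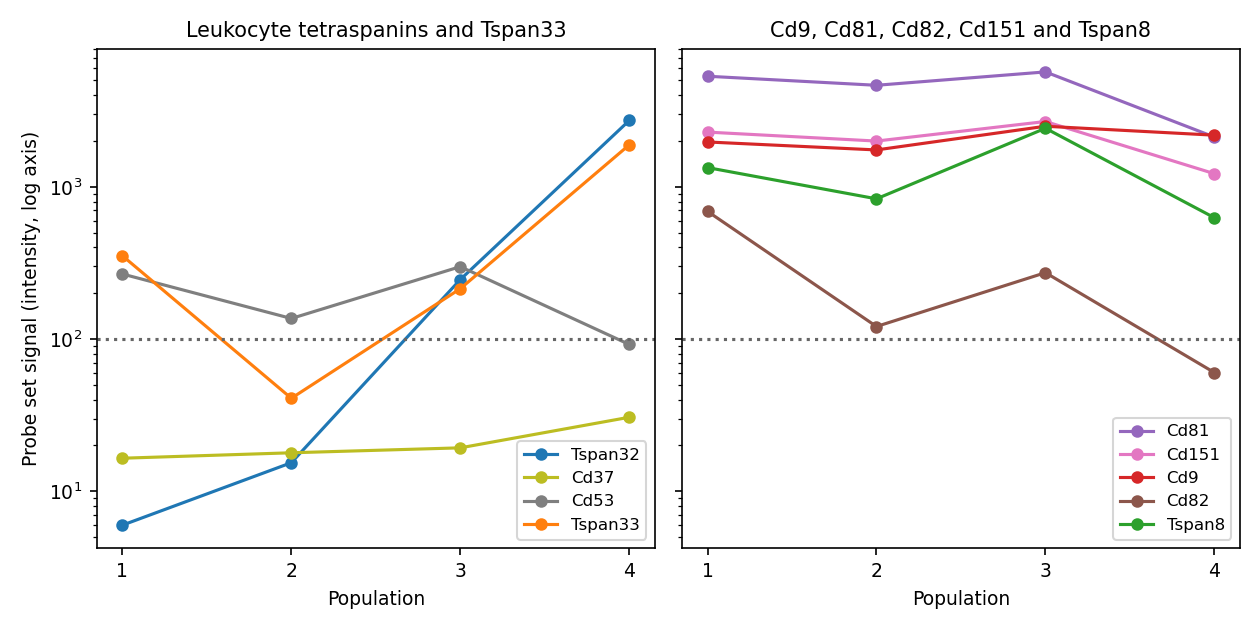
Probe set signal (intensity, log axis) of 9 tetraspanin genes in populations 1 to 4, each gene read by its brightest probe set on a single array, without error bars. The dotted line stands at 100, Tspan32 lies at 2731 in population 4, and heights are not comparable between genes because probe sets differ in brightness.

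The window before the start site is shown for Tspan32 and Tspan33, the genes with the largest folds toward population 4, and for the leukocyte gene Cd53, which was lower there. Each holds the 250 bases upstream of the RefSeq start in assembly GRCm38.p6, read 5′ to 3′ on the strand of the gene. Capitals mark the letters of 3 motifs on either strand, which are TGTGGT or TGCGGT for Runx factors, AGATAA or TGATAA for GATA factors and CCGGAA or AGGAAG for ETS factors.
Tspan32, chr7:143004796-143005045, + strand: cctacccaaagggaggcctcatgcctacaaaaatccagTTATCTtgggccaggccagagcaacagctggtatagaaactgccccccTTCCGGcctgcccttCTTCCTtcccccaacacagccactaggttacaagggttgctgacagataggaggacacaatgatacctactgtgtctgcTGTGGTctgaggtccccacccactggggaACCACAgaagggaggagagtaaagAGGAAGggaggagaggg
Tspan33, chr6:29693964-29694213, + strand: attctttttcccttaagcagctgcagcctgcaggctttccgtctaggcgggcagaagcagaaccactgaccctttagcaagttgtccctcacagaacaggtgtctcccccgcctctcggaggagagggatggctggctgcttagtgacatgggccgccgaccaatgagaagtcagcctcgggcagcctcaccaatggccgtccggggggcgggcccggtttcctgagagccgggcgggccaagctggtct
Cd53, chr3:106790150-106790399, - strand: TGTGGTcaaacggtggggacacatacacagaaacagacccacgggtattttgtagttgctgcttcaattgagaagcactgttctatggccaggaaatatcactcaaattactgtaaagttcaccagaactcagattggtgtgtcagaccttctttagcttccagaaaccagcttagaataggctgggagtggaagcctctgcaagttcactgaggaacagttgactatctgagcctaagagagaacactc

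The Tspan32 window held 2 Runx matches, starting at positions -70 and -41 from the start site, 3 ETS matches at -164, -149 and -17, and 1 GATA match at -212, with no overlap between them. Of 32851 windows of this length, 18.6% held a Runx match, 16.6% a GATA match and 38.2% an ETS match. A match of each of the 3 motifs was found in 0.965% of windows, and at least 2 Runx matches in 2.01%. In the Tspan33 window 0 matches of the 3 motifs were found, as in 41.4% of all windows, and the Cd53 window held 1 Runx match at its far edge, at position -250. Of the members not shown, the windows of Tspan8 and Cd81 and both windows of Cd151 held 0 matches. Those of Cd9 and Cd37 held 2 ETS matches each, and that of Cd63 held 1. Of the 4 windows of Cd82, 2 held Runx matches. The window of its start 4 held 2 of them, at -140 and -78, and 2 ETS matches, and that of start 2 held 1 Runx match. That of start 3 held 1 ETS match. These matches describe letters of the reference and not binding, and the motifs were chosen with the expression values known.

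Tspan32, which in mouse acts in platelets and T cells, had signals in populations 1 to 4 of 5.99, 15.4, 246 and 2731. It was under 100 in the first pair of populations and highest in population 4. Its signal stood at least 2.46-fold higher in population 3 than population 2 and 11.1-fold higher in population 4 than population 3. Its second probe set read 62.7, 52.7, 94.5 and 172 and stood at least 1.72-fold higher in population 4 than population 1. Both probe sets were highest in population 4, but the size of the difference rested on the brighter one, whose name marks several transcripts of 1 gene, and the lower bound from the second probe set alone did not pass 2-fold.

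Cd53, a tetraspanin found on most leukocytes, had signals in populations 1 to 4 of 268, 137, 299 and 92.2. It was read above 100 in the 3 VE-cadherin+ populations and just below 100 in population 4. Its signal stood at least 2.99-fold lower in population 4 than population 3, and 2.19-fold higher in population 3 than population 2. With signals raised to 200 in place of 100, its log2 ratio of population 4 to population 1 was -0.42, short of 2-fold. The second probe set of the gene stayed between 4.13 and 7.85 on the 4 arrays.

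Cd37, known from mature B cells, had signals of 16.5, 17.9, 19.3 and 30.6 by its brighter probe set and 1.83, 2.08, 3.87 and 7.92 by the other. No fold is given for it, since all these values lie under 100. Among 5 measured genes of the B lymphoid marker list, only Ebf1, which other tissues also express, exceeded 100, with signals of 540.2, 391, 772 and 44.6. The list summed to 95.8 in population 4 and 866 in population 3, and Cd79a, Cd79b, Pax5 and Vpreb1 stayed under 100 on all 4 arrays.

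Markers of macrophage and myeloid cells were read beside these leukocyte tetraspanins. The 9 genes of that list summed to 314, 448, 1168 and 1278 in populations 1 to 4, with 1, 1, 5 and 6 of them above 100. Ptprc, encoding the leukocyte antigen CD45, had signals of 0.927, 2.96, 47.1 and 221, while Itgam stayed at or under 7.20. The sum was higher in the CD41+ populations, as Tspan32 was. Between populations 4 and 3 the members differed, the 6 above 100 having a median log2 ratio of -0.34. Ptprc was the 1 at least 2-fold higher, where 7.94% of all genes above 100 were. Mpo, Spi1, Cd68 and Fcgr3 had signals of 158, 131, 173 and 130.2 in population 4. In population 3 they had 222, 154, 236 and 185, so that each was lower in population 4 by less than 2-fold. Csf1r went the other way, with 388 in population 4 and 222 in population 3, higher by less than 2-fold. Cd53 was lower in population 4. The share of these markers in the Tspan32 and Cd53 values was not tested.

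Tspan33, also called Penumbra and known from mouse erythroid progenitors, had signals in populations 1 to 4 of 353, 40.8, 214 and 1889. Its level was thus lowest in population 2 and highest in population 4. Its signal stood at least 3.53-fold lower in population 2 than population 1, at least 2.14-fold higher in population 3 than population 2 and 8.81-fold higher in population 4 than population 3. Its 4 probe sets were each lowest in population 2 and highest in population 4, and gave log2 ratios of population 4 to population 1 between 1.86 and 2.69. The 1 probe set whose name marks no shared target read 65.0, 19.8, 38.1 and 362, so that the difference between populations 2 and 1 lay under 100 there.

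Erythroid markers were also higher at the last step. The 8 measured genes of the erythroid list summed to 257, 345, 4678 and 50201 in populations 1 to 4. All 8 were at least 2-fold higher in population 4 than population 3, where 7.94% of all genes above 100 were. Hbb-bh1, an embryonic globin gene, read 73.3, 151, 3568 and 15940.0 across the 4 populations. Of 6 measured megakaryocyte markers, 5 exceeded 100 in population 4 and 3 did in population 3, and their sum was 3045 in population 4 and 2739 in population 3. This list holds the sort gene Itga2b, and without it the sum was 1435 in population 4 and 321 in population 3. Over the 5 genes above 100 the median log2 ratio of population 4 to population 3 was 1.47. Of them 3, Gp1bb, Pf4 and Gp5, were at least 2-fold higher, beside the same 7.94% of all genes. What part these cell types had in the Tspan32 and Tspan33 values was not tested.

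**Figure D2:**
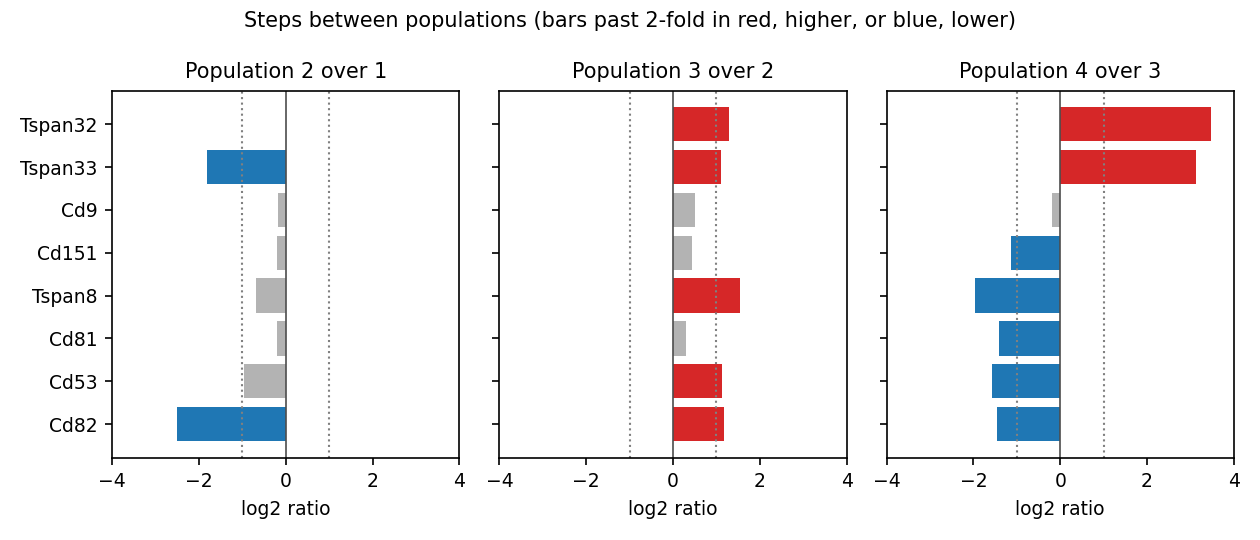
log2 ratio of each of 8 tetraspanin genes at the 3 steps from population 1 to 4 (x axes), with 1 array per population and signals under 100 raised to 100. Red bars mark genes higher and blue bars genes lower by 2-fold or more in the later population. At the last step Tspan32 and Tspan33 point one way and 5 genes the other, and Tspan32 has no bar at the first step because both its signals lie under 100.

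Cd9, Cd81, Cd82 and Cd151 are the members best known as partners of integrins and immunoglobulin-like proteins. Cd82, a suppressor of tumour cell spread, had signals in populations 1 to 4 of 691, 121, 273 and 60.2. It was highest in population 1 and under 100 in population 4. The signal was 5.71-fold lower in population 2 than population 1, 2.26-fold higher in population 3 than population 2 and at least 2.73-fold lower in population 4 than population 3. A second, dimmer probe set read 75.5, 100.1, 129 and 96.5 and did not show the high value of population 1, and averaging both gave a log2 ratio of population 4 to population 1 of -1.19 in place of at most -2.79.

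Cd81, known in human liver cells as an entry receptor of hepatitis C virus, had signals in populations 1 to 4 of 5333, 4650, 5694 and 2125. Its 3 values in VE-cadherin+ populations lay close together and above that of population 4, which was 2.68-fold lower than population 3. Cd151, a partner of laminin-binding integrins, had signals of 2290, 2000, 2689 and 1221. Again population 4 was lowest, 2.20-fold under population 3 and 1.88-fold under population 1. Its 4 probe sets above 100 gave log2 ratios of population 4 to population 1 from -1.18 to -0.91, and all were highest in population 3 and lowest in population 4. Cd9, known from platelets and from the fusion of sperm and egg, had signals of 1973, 1749, 2503 and 2186, with 1.43-fold between the highest and the lowest.

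Tspan8, known from epithelia and from secreted vesicles, had signals in populations 1 to 4 of 1339, 835, 2427 and 627. It was highest in population 3, where it was 2.91-fold higher than in population 2, and it was 3.87-fold lower in population 4 than population 3. Its 5 probe sets were each highest in population 3, and 4 of them were lowest in population 4. The 2.14-fold difference between populations 4 and 1 was not shared by the dimmer ones, of which 2 had log2 ratios of -0.37 and -0.34 and 2 lay under 100 in both populations.

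At the first step, 0 of the 8 genes were at least 2-fold higher in population 2 than population 1, where 2.92% of all genes above 100 were, and Tspan33 and Cd82 were the 2 lower ones, where 4.19% were. Cd53 came close to that fold, 1.96-fold lower. At the second step, Tspan32, Tspan33, Tspan8, Cd82 and Cd53 were the 5 genes at least 2-fold higher in population 3 than population 2, where 3.11% of all genes were, and 0 were lower, where 0.253% were. For Tspan32 and Tspan33 population 2 lay under 100, and on signals centred on the median of all probe sets only Tspan32 and Tspan8 passed 2-fold, as did 1.06% of all genes. At the third step, Tspan32 and Tspan33 were the 2 higher in population 4 than population 3, where 7.94% of all genes were, and Tspan8, Cd81, Cd82, Cd151 and Cd53 the 5 lower, where 12.2% were. Median log2 ratios of the 8 genes at the 3 steps were -0.44, 1.12 and -1.28, beside 0.00, 0.22 and 0.06 for all genes. Tspan32 enters the first of them at 0, both its signals lying under 100, and successive steps share an array.

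**Figure D3:**
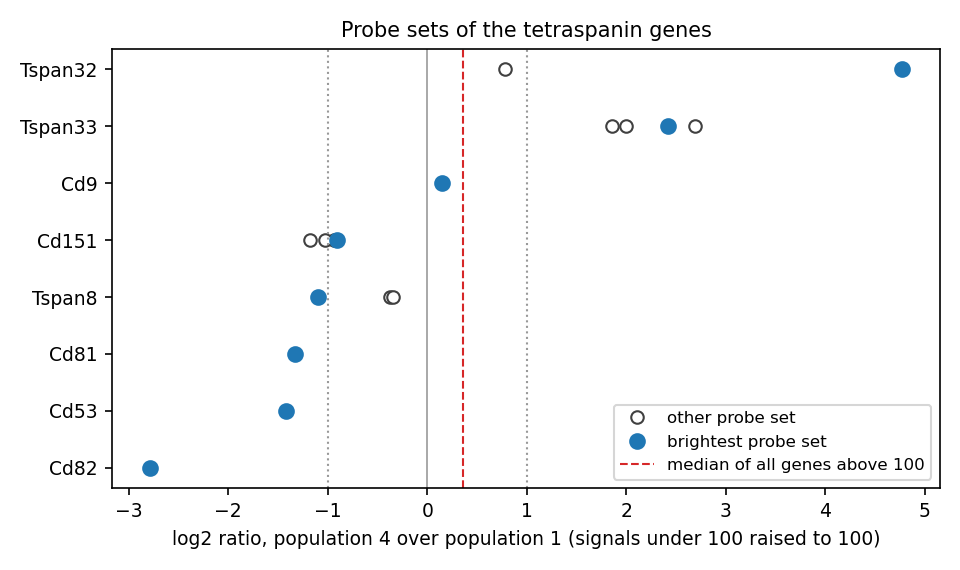
log2 ratio of population 4 to population 1 (x axis) for each probe set of 8 tetraspanin genes that exceeded 100 in population 4 or 1. Filled points are the probe sets used, open points the others, dotted lines mark 2-fold and the dashed line the median of 0.36 over 9468 genes. Those of Tspan33 lie between 1.86 and 2.69, while those of Tspan32 lie at 4.77 and 0.78.

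The summed signal of endothelial markers was lowest in population 4, as the signals of Cd82, Cd81, Cd151, Cd53 and Tspan8 were. The 10 endothelial genes summed to 29270.3, 20060, 24026 and 3016 in populations 1 to 4. All 10 were at least 2-fold lower in population 4 than population 3, where 12.2% of all genes above 100 were. Of the 10, 3 were at least 2-fold lower in population 2 than population 1, as Cd82 and Tspan33 were, where 4.19% of all genes were. These were Cldn5, Emcn and Pecam1, with 527, 258 and 1050 in population 2, against 2058, 2498 and 2139 in population 1. In population 3 they had 693, 571 and 1369. Emcn alone of the 10 was at least 2-fold higher there than in population 2, where 3.11% of all genes were. The other endothelial markers except Tek were also lower in population 2 than in populations 1 and 3, by less than 2-fold. Of 9 stromal markers, which the OP9 layer could carry, 4, 3, 3 and 3 exceeded 100 in populations 1 to 4, and their sum was 3239, 1955, 1753 and 1430. The part of either cell type in the tetraspanin values was not tested.

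The rest of the family was read from a list of 21 further tetraspanins, of which 20 had a probe set used here and 13 exceeded 100. Their median log2 ratio of population 4 to population 1 was -1.24. At least 2-fold higher in population 4 was 1 of them, where 22.4% of all genes above 100 were. This was Tspan12, a co-receptor of Norrin signalling through Fzd4, with signals in populations 1 to 4 of 303, 972, 1420.1 and 781. After centring on the genes above 100 it did not reach 2-fold. At least 2-fold lower were 7, where 12.9% of all genes were. They were led by Tspan2 with 956, 457, 651 and 78.1 and Tspan18, known from endothelium, with 1786, 1145, 1333 and 232. Tspan13, Tspan9 and Tspan6 were 3.15-fold, 3.11-fold and 3.08-fold lower. Tspan3 and Tspan31, by contrast, lay within 1.39-fold and 1.21-fold over the 4 arrays.

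**Figure D4:**
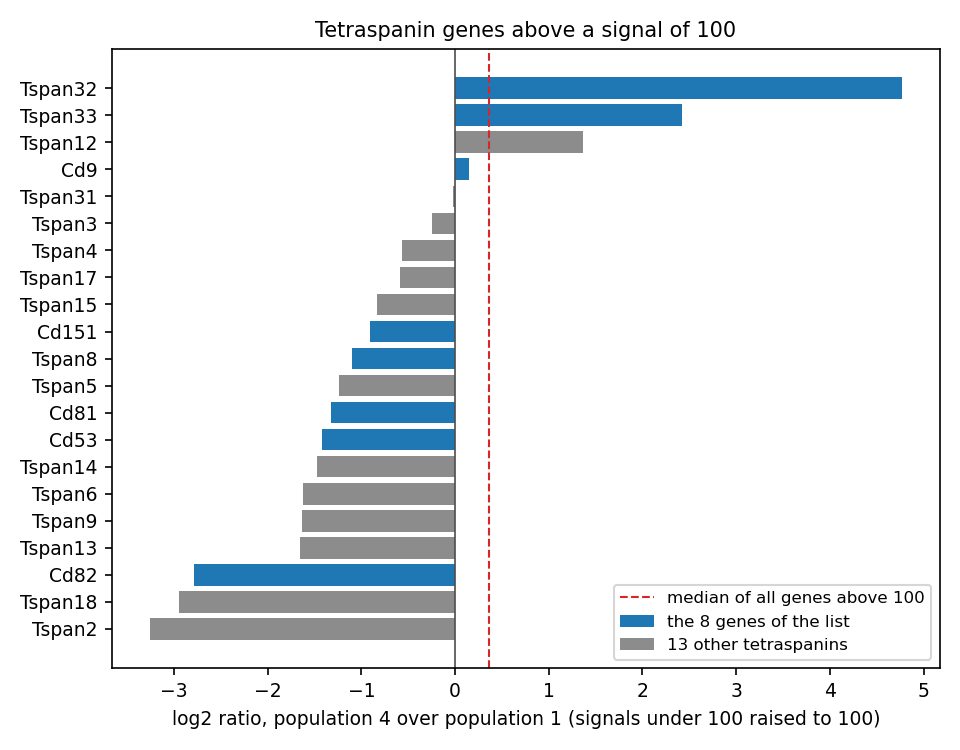
log2 ratio of population 4 to population 1 (x axis) for 21 tetraspanin genes above a signal of 100, with 1 array per population and signals under 100 raised to 100. Blue bars are the 8 genes of the list, grey bars 13 others, and the dashed line is the median of 0.36 over all 9468 genes. Only Tspan32, Tspan33 and Tspan12 lie right of that line on the deposited scale.

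Within the TspanC8 group, 5 of 6 genes exceeded 100. Of these 5, Tspan33 was the 1 at least 2-fold higher in population 4 than population 1, where 22.4% of all genes were. Tspan14 had signals in populations 1 to 4 of 1525, 1495, 1853 and 549, and Tspan5 236, 410, 368 and 62.3. These 2 of the 5 were at least 2-fold lower in population 4, where 12.9% of all genes were, by 2.78-fold and at least 2.36-fold. Tspan15 and Tspan17 were at least 1.78-fold and at least 1.51-fold lower. Adam10, the protease that these proteins bind, had signals of 3835, 3113, 4038 and 3909, within 1.3-fold.

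Of 18 genes for partners of tetraspanins, 17 had a probe set used here and 14 exceeded 100. Of these 14, 3 were at least 2-fold higher in population 4 than population 1, where 22.4% of all genes above 100 were. At least 2-fold lower were 6, where 12.9% of all genes were. Prkca, a protein kinase C that binds tetraspanins, was higher, with signals in populations 1 to 4 of 57.5, 151, 631 and 2283. The integrin genes Itgb2, the leukocyte beta chain, and Itga4 were higher too, at least 7.40-fold and at least 4.39-fold. Itga6, a chain of the laminin receptors that CD151 binds, had signals of 3578, 2232, 3629 and 404 and was 8.87-fold lower. Itga3 was at least 3.69-fold, Itgb1 3.0-fold, Timp1 2.96-fold and Ptgfrn, encoding an immunoglobulin-like partner of CD9 and CD81, at least 2.35-fold lower.

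Genes with profiles like those of the tetraspanins were sought among the 9468 by the root mean square difference of log2 signals over the 4 populations, each gene centred on its own mean. Nearest to Tspan32 was Nfe2, a transcription factor gene of erythroid cells and megakaryocytes, with signals in populations 1 to 4 of 1.67, 42.4, 277 and 2373 and a difference of 0.13. Tuba4a and Ell2 followed with 0.18 and 0.33. Closest to Tspan33 was Smox, encoding spermine oxidase, with 182, 90.8, 154 and 1170 and a difference of 0.35, followed by Gpc4 (0.41) and Hebp1 (0.46). For Cd82 the nearest gene was Gpihbp1, which anchors lipoprotein lipase on capillary endothelium, with 651, 125, 265 and 9.26 and a difference of 0.05, then Abtb2 and Icam1. Cd53 lay nearest Smagp, Endod1 and the iron exporter gene Slc40a1, Tspan8 nearest Clu, Zfp319 and H2ac19, Cd81 nearest Git1, Zfhx3 and Mxra8, and Cd151 nearest Irf1, Rnf215 and Hoxb5, with differences between 0.02 and 0.12. These are likenesses over 4 arrays with signals under 100 raised to 100.

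By gene order in GRCm38.p6, Tspan32 and Cd81 lie next to each other on chromosome 7 with only R74862 between them. R74862 had signals in populations 1 to 4 of 79.9, 54.1, 121 and 76.7, so that it exceeded 100 in population 3 alone. Tssc4, the next gene after Cd81, had 836, 827, 996 and 644. The neighbours Tspan32 and Cd81 thus had opposite differences between populations 4 and 1, 27.3-fold or more higher for Tspan32 and 2.51-fold lower for Cd81. Cd82 and Tspan18, which were both lower in population 4, lie on chromosome 2 with 5 genes between them. Other neighbours of the members above 100 are not described here.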

How the data were processed

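The authors deposited probe set signals as intensity on a linear scale from 4 Affymetrix mouse arrays, 1 per population. The submitters' processing notes name MAS5 and GCOS 1.3, and the scaling target and detection calls are not given in the sources used here. The number of arrays limits the precision, and no test between populations was made. Neither ChIP-Seq reads nor the replicate set of arrays, from another platform, were used here. Probe sets with 1 gene symbol (34958) were kept, 932 with several and 9211 with none were left out, and symbols were updated through gene records of GRCm38.p6. Where a gene had several probe sets, the one brightest on average (log2) stood for it. Of 18194 genes, 9468 had a signal above 100 in at least 1 population. Over 6780 pairs of a gene's main and another probe set above 100, log2 ratios of population 4 to population 1 differed by a median of 0.29 (absolute), with a 90th percentile of 1.03.

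Names ending in _a_at, _s_at or _x_at mark probe sets that several transcripts or genes share. A call means at least 2-fold with signals under 100 raised to 100. The text names all members, the sort genes, up to 5 called genes in each direction of the other tetraspanins and of the partners, the TspanC8 group, and the 3 genes most like each member that spanned 2-fold. Of the expressed neighbours it names only R74862, Tssc4 and Tspan18. Tspan3, Tspan31, R74862, Tssc4 and the marker genes were singled out after their values were seen. Members, lists and tests were chosen with earlier results of these data known. Promoter windows are RefSeq's, and 10 of 10 members matched that table. Of these, Cd82 and Cd151 have several starts. Alternatives were 3 other scales between arrays, floors of 50 and 200, averaging a gene's probe sets, dropping those with shared targets, no minimum signal and, chosen after seeing the data, centring on genes above 100. Python 3.11.15, pandas 2.3.3, numpy 2.4.6 and matplotlib 3.10.9 were used. The calls were tested on simulated data, with differences well past 2-fold planted in genes with signals well above 100. Planted differences near 2-fold, or in genes near a signal of 100, were not tried.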

Additional observations from a re-analysis of the deposited data

How the results depend on the processing

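Results were recomputed under 9 alternatives, 8 of them planned, and 0 of the called ratios of single genes changed sign. Counts of the 8 genes past 2-fold moved as follows, beside the share of all genes past it where that share is given. Of the 5 genes higher in population 3 than population 2 (3.11% of all genes), 2 passed after centring on the median of all probe sets (1.06%), after quantile normalisation (1.23%) and after centring on genes above 100 (1.3%). With a floor of 200 (1.72%) or probe sets averaged (2.45%) 1 passed, and without shared probe sets 3 did (2.93%). Of the 2 genes higher in population 4 than population 1, and of the 2 higher than in population 3, 1 passed without shared probe sets, Tspan33 (22.3% and 8.07%). Of the 2 lower in population 2 than population 1 (4.19%), 1 passed with a floor of 200 (2.83%), with probe sets averaged (3.38%) or without shared probe sets (4.11%), Cd82. On the hybridisation controls (4.33%) and after centring on genes above 100 (5.01%) this count was 3, with Cd53 added. Of the 4 genes lower in population 4 than population 1 (12.9%), 2 passed after scaling on the hybridisation controls (10.2%) and 2 with probe sets averaged (10.1%), and 3 passed with a floor of 200 (9.56%) or without shared probe sets (12.7%). The count was 5, with Cd151 added, after centring on the median of all probe sets (13.8%), quantile normalisation (15.5%) and centring on genes above 100 (17.7%). Of the 5 lower in population 4 than population 3 (12.2%), 4 passed after centring on the median of all probe sets (10.4%), 3 with a floor of 200 (9.34%) and 2 with probe sets averaged (9.8%). The cause was not tested, except that a higher floor can only shrink a fold by construction. Signals below 100 set the limit for Cd37, for Tspan32 in populations 1 and 2, for Tspan33 in population 2, and for Cd82 and Cd53 in population 4. No paired analysis was possible because each population has 1 array in the set used here.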
